A study of Mus musculus with 34 samples.

Results

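Acetylcholinesterase, butyrylcholinesterase and the subunits of neuronal nicotinic acetylcholine receptors were followed across the RNA-seq groups of a series on mouse CAD cells, a line of catecholaminergic neuronal origin that differentiates, with neurite outgrowth, once serum is withdrawn. The genes are given by name, with no threshold on a measured value, and were proposed with earlier results of these data known. It holds 10 genes of the 37310 in the count tables: the cholinesterases Ache and Bche, their anchoring proteins Prima1 and Colq, the receptor subunits Chrna3, Chrna5, Chrna7, Chrnb2 and Chrnb4, and the vesicular acetylcholine transporter Slc18a3. Of these, 9 matched a row of the count tables by Ensembl identifier, and Slc18a3 did not and was not analysed here. The values come from 28 polyA RNA-seq libraries in 13 groups, out of 34 libraries in the series.

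Groups differed in genotype, transfection and time without serum. Experiment 1 compared the wild type (WT) with a line labelled mir-138 DKO, a double knockout of the miR-138 genes, each in 10% serum and at 1 day without serum, with 2 libraries a group. Experiment 2 held WT cells in serum and at 4 days without serum, with 3 libraries a group. Experiment 3 held only cells labelled DKO, with 2 libraries a group: in serum with no transfection named, and transfected with pUC19 plasmid DNA, a miR-138 mimic or a miR-137 mimic (3 nM), each in serum and at 2 days without serum, which was removed 48 h after transfection. The genotype field of the 4-day libraries reads mir-138 DKO while their titles, the design text and the protocol give WT, and they were analysed as WT. The number of clones behind the DKO label, and whether replicates were separate cultures, are not stated, so the p-values speak only of spread among libraries, which may be technical.

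Acetylcholine released by a neuron opens nicotinic receptors, pentameric cation channels, and is then hydrolysed by acetylcholinesterase within the synapse. Acetylcholinesterase is held at neuronal membranes by the anchor encoded by Prima1 and in the basal lamina of muscle by the collagen tail encoded by Colq, while butyrylcholinesterase hydrolyses acetylcholine and other choline esters more broadly. In autonomic ganglia the receptors are built mainly from the subunits encoded by Chrna3 and Chrnb4, often with the accessory subunit encoded by Chrna5. The subunit of Chrnb2 pairs with several alpha subunits in the brain, and that of Chrna7 forms receptors on its own. Chrna5, Chrna3 and Chrnb4 lie beside each other in 1 gene cluster.

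The comparisons turn on 2 microRNAs, shown first, 5′ to 3′, because with their mimics the clustered receptor genes differed from the control in opposite directions. The capitals mark the seed, bases 2 to 8, and the 2 seeds differ.
mmu-miR-138-5p: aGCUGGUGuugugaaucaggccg
mmu-miR-137-3p: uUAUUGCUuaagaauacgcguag
Both mature sequences are from RefSeq (GRCm38.p6), with the first on the plus strand at chr9:122682898-122682920, within Mir138-1, and the second on the plus strand at chr3:118433901-118433923, within Mir137.

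Promoter windows, from 250 bases before to 50 bases after an annotated start, were found in RefSeq (GRCm38.p6) for 8 of the 10 genes, and for Chrna5 at 2 starts. Those of the 3 clustered receptor genes are shown because the genes moved together with the mimics, and that of Ache because its rise on serum withdrawal had the largest log2 fold change in this gene set against a group with reads. Capitals mark the GC box, GGGCGG, on either strand.
Chrna5, second start, plus strand, chr9:54981238-54981537: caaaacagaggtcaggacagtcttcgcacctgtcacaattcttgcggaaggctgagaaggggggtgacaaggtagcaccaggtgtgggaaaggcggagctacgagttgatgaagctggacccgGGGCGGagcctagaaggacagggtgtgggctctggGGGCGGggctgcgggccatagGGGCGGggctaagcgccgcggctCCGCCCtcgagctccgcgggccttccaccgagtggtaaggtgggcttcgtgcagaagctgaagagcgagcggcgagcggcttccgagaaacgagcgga
Chrna3, minus strand, chr9:55026513-55026812: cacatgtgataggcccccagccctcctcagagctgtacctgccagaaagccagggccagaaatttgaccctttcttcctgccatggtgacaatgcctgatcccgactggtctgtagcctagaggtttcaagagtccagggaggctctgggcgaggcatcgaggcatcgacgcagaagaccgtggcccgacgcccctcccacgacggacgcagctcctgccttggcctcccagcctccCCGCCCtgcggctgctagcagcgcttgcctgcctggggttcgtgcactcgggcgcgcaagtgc
Chrnb4, minus strand, chr9:55048495-55048794: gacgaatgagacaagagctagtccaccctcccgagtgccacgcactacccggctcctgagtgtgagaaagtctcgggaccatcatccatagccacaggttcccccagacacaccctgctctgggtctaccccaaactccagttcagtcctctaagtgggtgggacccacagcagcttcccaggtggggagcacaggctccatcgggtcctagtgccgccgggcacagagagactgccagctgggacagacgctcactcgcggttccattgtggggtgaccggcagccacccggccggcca
Ache, plus strand, chr5:137288004-137288303: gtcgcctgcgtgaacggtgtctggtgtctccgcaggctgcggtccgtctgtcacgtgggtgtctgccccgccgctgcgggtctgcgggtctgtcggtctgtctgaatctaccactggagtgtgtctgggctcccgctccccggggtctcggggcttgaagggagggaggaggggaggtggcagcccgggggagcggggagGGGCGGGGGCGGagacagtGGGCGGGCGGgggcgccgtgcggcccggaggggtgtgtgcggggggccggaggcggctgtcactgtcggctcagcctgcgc
The GC box occurred 4 times at the second start of Chrna5, 0 times at its first start, 1 time at Chrna3, 0 times at Chrnb4 and 4 times at Ache, with overlapping matches counted. Of 32851 RefSeq mouse promoter windows of this length, 35.7% held at least 1 match. The E-box CANNTG, whose pattern reads the same on both strands, occurred 3 times at Chrna3, 2 times at Chrnb4, 2 times at each start of Chrna5 and 1 time at Ache, and 72.3% of all windows held it. A GC box match may share end bases with an E-box match, and the 2 were counted separately. G and C made up 74.0% of the Ache window and 63.0 to 65.0% of the 3 cluster windows shown, against a median of 52.7% over all windows. The window at the first start of Chrna5, not shown, had 41.3%, under that median. A match describes these letters only.

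Libraries held between 12740836 and 41505181 reads on genes. Levels are CPM, each gene's share of its library's reads after TMM scaling within each experiment, so levels set side by side across experiments were scaled separately. Polyadenylated reads at the targeted hairpin gene Mir138-1 were higher in the libraries labelled DKO (6.83 ± 1.27 CPM in serum, SD, n = 2) than in WT (0.622 ± 0.0907 CPM, SD, n = 2), and Mir138-2 had 0 reads in all 28. These reads do not measure the mature microRNA, and the sources used here do not give the deleted bases, so they do not check the label. The summed level of 8 catecholaminergic neuron markers (Th, Dbh, Ddc, Slc18a2, Tubb3, Nefh, Chgb, Snap25) ran from 1920.0 to 9510.0 CPM in WT libraries and from 32.0 to 295 CPM in those labelled DKO, where Th and Slc18a2 were at 0 in serum in experiment 1. Summed markers of skeletal muscle stayed at or under 0.762 CPM with Myod1 at 0 in all 28 libraries, those of blood at or under 2.63 CPM, those of glia at 1.86 to 18.7 CPM and those of fibroblasts at 0.559 to 38.1 CPM. In such bulk RNA, fewer cells that express a gene and less RNA per cell cannot be told apart.

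Serum withdrawal was followed by more cholinesterase and nicotinic receptor RNA in WT cells. At 4 days Ache, Bche, Prima1, Chrna3, Chrna5 and Chrnb2 had risen, 6 of the 8 tested beside Colq, and 0 had fallen, at an adjusted p under 0.05 by edgeR's quasi-likelihood test. Over all 13283 genes tested in that comparison, 36.2% were higher and 34.7% lower, so calls in both directions were common. The median log2 fold change was 1.27 over the 8 genes and 0.04 over all genes tested. Colq passed the low-count filter only through its 4-day libraries and is left out of this count and median; with it at its lower bound the median was 1.90. The summed catecholaminergic markers went from 2240.0 to 2340.0 CPM in serum to 7410.0 to 9510.0 CPM at 4 days, but the list moved both ways: of 7 tested 3 were higher, among them Chgb (log2 2.69), and 3 lower, among them Dbh (−3.26), with a median of −1.42. Summed fibroblast markers went from 0.559 to 1.55 CPM to 7.31 to 8.98 CPM, with 3 of 3 tested higher and Col3a1 at 0. The part of these markers in the changes was not tested. At 1 day Ache, Bche and Chrnb2 had risen and Chrna7 had fallen, of 8 tested, against 20.4% higher and 20.3% lower among 13630 genes, with medians of 0.38 and 0.02. The calls of Chrna7 (adjusted p of 0.0748 to 0.0970 by edgeR) and Chrnb2 (0.0616 to 0.0986) at 1 day were lost when any 1 of the 4 libraries was left out, and Chrna7 was also not called by DESeq2.

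In cells labelled DKO, 1 day without serum brought higher Ache, Bche and Chrna3 and lower Chrna7 and Chrnb2, of 8 tested. Among all genes tested 19.9% were higher and 20.4% lower, and the medians were 0.50 for the 8 genes and 0.01 for all. Effects of 1 day differed between WT and DKO for 2 of 8, Chrna3 and Chrnb2, where 5.36% of all genes differed in the higher and 4.37% in the lower direction. In experiment 3, with pUC19, 2 days without serum brought higher Ache, Bche, Chrna3, Chrna5, Chrnb2 and Chrnb4, 6 of 8, and 0 lower. Of 12655 genes tested there 28.4% were higher and 31.3% lower, with medians of 1.43 for the 8 genes and −0.02 for all. Summed fibroblast markers went from 7.07 to 7.43 CPM to 26.2 to 28.2 CPM there, with 4 of 5 tested higher, and glial markers from 4.42 to 4.87 CPM to 9.80 to 10.7 CPM, with 2 of 3 higher, while Col3a1 and Sox10 were at 0. Their part was not tested.

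Cells labelled DKO had less Ache, Prima1, Chrna3, Chrna7 and Chrnb2 RNA than WT cells, both in serum and at 1 day. In serum these 5 of 8 were lower and Chrna5 was higher, against 19.2% of all genes higher and 21.5% lower. At 1 day the 5 were lower and 0 were higher, against 21.9% higher and 23.0% lower. The median log2 difference of the 8 genes was −2.40 in serum and −2.23 at 1 day, and that of all genes −0.01 and 0.01. Genotype and cell line cannot be told apart in this comparison, and the neuronal markers above were also lower in the libraries labelled DKO, 6 of 7 tested in serum with 1 higher; their part in these differences was not tested.

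The miR-138 mimic was followed by more RNA of the clustered receptor subunits Chrna3, Chrna5 and Chrnb4, and the miR-137 mimic by less. In serum the miR-138 mimic was followed by higher Chrna3, Chrna5, Chrna7, Chrnb2 and Chrnb4 and lower Bche and Prima1 than pUC19, 7 of 8 tested, where 28.7% of all genes were higher and 27.3% lower. At 2 days Chrna3, Chrna5, Chrnb2 and Chrnb4 were higher and Bche was lower, where 30.9% of all genes were higher and 31.1% lower. With the miR-137 mimic in serum Chrna3, Chrna5 and Chrnb4 were lower and 0 were higher, against 23.1% higher and 22.5% lower among all genes. At 2 days Ache was higher and Chrna3, Chrna5, Chrnb4 and Chrna7 were lower, against 20.5% higher and 22.2% lower. The medians of the 8 genes were 0.75 and 0.89 for miR-138, in serum and at 2 days, and −0.01 and −0.38 for miR-137, while those of all genes lay between −0.02 and 0.03. Both mimics are compared with 1 set of pUC19 libraries, so the 2 series of fold changes are not independent. The control was plasmid DNA, no group received a non-targeting mimic, and the group with no transfection named was in serum only. Against pUC19, small RNA transfection as such and the sequence of the microRNA therefore cannot be told apart. Summed markers of glia (17.4 to 18.7 CPM against 9.80 to 10.7 CPM with pUC19) and of fibroblasts (37.1 to 38.1 CPM against 26.2 to 28.2 CPM) were also higher with miR-138 at 2 days, with 1 of 3 glial genes called higher and the fibroblast genes split at 1 higher and 1 lower of 5. With miR-137 both sums were lower than with pUC19: at 2 days 7.56 to 9.08 CPM for glia and 14.6 to 15.4 CPM for fibroblasts, and in serum 1.86 to 2.57 CPM (pUC19, 4.42 to 4.87 CPM) and 4.07 to 4.79 CPM (pUC19, 7.07 to 7.43 CPM). These sums thus moved with the clustered receptor genes under both mimics at 2 days, with Sox10 and Col3a1 at 0, and their part was not tested.

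Other comparisons in experiment 3 were made beside these. Against cells with no transfection named, in serum, pUC19 cells had lower Chrna5 and 0 higher genes of 8, where 10.7% of all genes were higher and 15.5% lower. The call of Chrna5 (log2 fold change −0.39, adjusted p = 0.0336 by edgeR) was lost by DESeq2 (0.111), without the low-count filter (0.0593), and without replicate 2 of the group with no transfection named (0.187), pUC19 replicate 1 (0.0642) or pUC19 replicate 2 (0.183). Set directly against each other at 2 days, the miR-138 mimic had higher Chrna3, Chrna5, Chrna7, Chrnb2 and Chrnb4 and lower Ache and Bche than the miR-137 mimic, where 30.8% of all genes were higher and 30.8% lower. The effect of miR-138 differed between serum and 2 days for 3 of 8 genes, all in the higher direction, where 13.3% of all genes differed in the higher and 14.5% in the lower direction. That of miR-137 differed for 1 of 8, Ache, where 11.9% differed in the higher and 11.4% in the lower direction. Wherever 0 genes of the set were called in a direction, DESeq2 also called 0, and at an unadjusted p under 0.05 edgeR gave 0, except for 1 gene (Chrna7) lower in the miR-137 interaction.

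**Figure D1:**
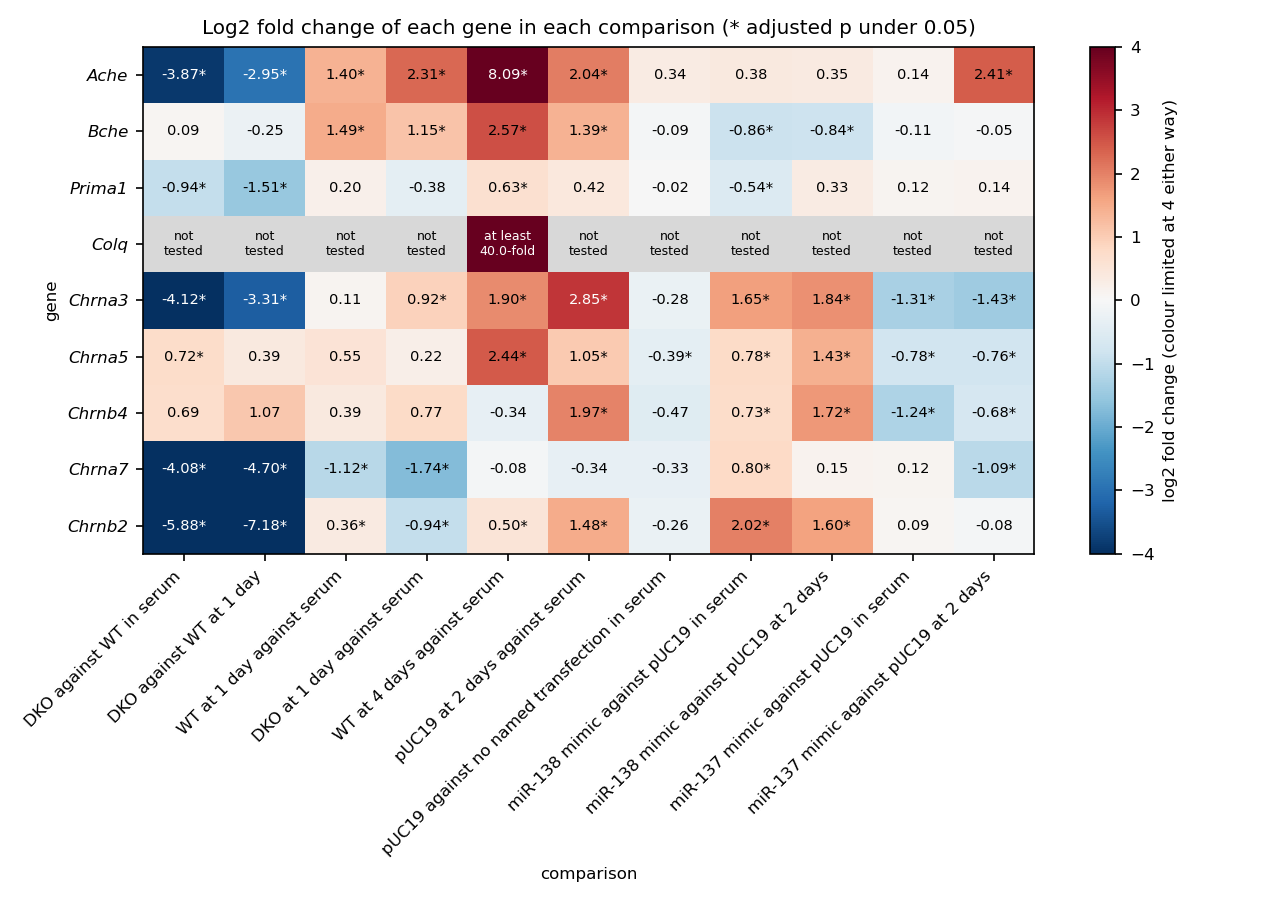
Log2 fold change of 9 genes (rows) in 11 comparisons (columns), with an asterisk where the adjusted p from edgeR was under 0.05 and colour limited at 4 in either direction. Chrna3, Chrna5 and Chrnb4 are positive with the miR-138 mimic and negative with the miR-137 mimic, and Ache reaches 8.09 in WT cells at 4 days; Colq is given as a lower bound with no test because its serum libraries held 0 counts.

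Ache encodes the enzyme that ends cholinergic transmission. In experiment 2 its level in WT cells was 4.34, 4.70 and 3.83 CPM in serum and 1450.1, 936 and 1124 CPM at 4 days. The groups were far apart, a 272-fold difference (log2 fold change 8.09 ± 0.18, SE; adjusted p = 2.28e-12). At 1 day the 2 WT libraries had 23.6 CPM each, against 10.6 and 7.38 CPM in serum, a 2.64-fold rise (adjusted p = 0.000348). In these WT cells the 1-day libraries therefore lay above both serum libraries, and far under the separately scaled 4-day libraries.

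In cells labelled DKO, Ache started lower and rose to a smaller level. It had 0.37 and 0.93 CPM in serum, from 15 and 26 reads, and 3.46 and 2.63 CPM at 1 day. Against WT the log2 difference in serum was −3.87 ± 0.33 (SE; adjusted p = 3.14e-07), and the later one was −2.95 ± 0.27 (adjusted p = 4.9e-07). All DKO libraries lay under all WT libraries of the same experiment. The serum difference was −4.58 without DKO serum replicate 2 and −3.28 without replicate 1, and the 1-day rise within DKO cells, 2.31 ± 0.35, was 3.05 and 1.70 in turn.

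The mimics touched Ache unevenly. In serum its level was 1.47 and 0.86 CPM with pUC19, 1.73 and 1.45 CPM with miR-138, 1.40 and 1.29 CPM with miR-137 and 1.00 and 0.92 CPM with no transfection named, and the pUC19 range overlapped those of the other groups. At 2 days it was 3.96 and 6.19 CPM with pUC19, 4.90 and 8.07 CPM with miR-138, and 24.5 and 28.9 CPM with miR-137. Both miR-137 libraries stood above the 4 others, 5.31-fold over pUC19 (log2 fold change 2.41 ± 0.20, SE; adjusted p = 8.55e-09), while miR-138 overlapped pUC19 (0.35 ± 0.23; adjusted p = 0.194), passing only without miR-138 replicate 1 (0.68; 0.0225) or pUC19 replicate 2 (0.69; 0.0317). The miR-137 effect was larger at 2 days than in serum by 2.27 ± 0.47 on the log2 scale (adjusted p = 0.00174), a call lost without pUC19 serum replicate 1 (1.80; adjusted p = 0.0771). The summed catecholaminergic markers were also highest with miR-137 at 2 days (274 to 295 CPM, against 78.4 to 105 CPM with pUC19 and 87.6 to 103 CPM with miR-138). That list too moved both ways, with 2 higher and 2 lower of 7 tested and a median of −0.50 against pUC19: Tubb3 was at 2.46 and Dbh at −2.89 (adjusted p = 4.8e-08). Its part in the Ache difference was not tested.

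Bche encodes the other cholinesterase, which has a wider range of substrates. It rose on serum withdrawal in each experiment: in WT cells from 13.04 and 15.1 CPM to 35.8 and 43.1 CPM at 1 day, and in experiment 2 from 23.2, 22.1 and 24.0 CPM to 117, 169 and 125 CPM at 4 days. Those rises were 2.80-fold (log2 1.49 ± 0.13, SE; adjusted p = 1.18e-06) and 5.94-fold (2.57 ± 0.13; adjusted p = 8.52e-10), with no overlap of groups, and with pUC19 at 2 days the rise was 2.62-fold (adjusted p = 4.65e-08). Unlike Ache, Bche did not pass the test between genotypes: DKO cells had 15.9 and 14.0 CPM in serum and 31.5 and 35.1 CPM at 1 day, a log2 difference from WT of 0.09 ± 0.14 (adjusted p = 0.634) and −0.25 ± 0.13 (adjusted p = 0.135), although the 1-day groups did not overlap. The miR-138 mimic left less Bche, 15.9 and 21.1 CPM against 36.6 and 30.0 CPM with pUC19 in serum, and 48.2 and 49.7 CPM against 77.9 and 98.1 CPM at 2 days. These were log2 fold changes of −0.86 ± 0.15 (adjusted p = 7.22e-05) and −0.84 ± 0.13 (adjusted p = 1.62e-05), with no overlap of groups. With miR-137 it was 28.1 and 34.3 CPM in serum and 73.3 and 96.7 CPM at 2 days, both overlapping pUC19 (adjusted p = 0.599 and 0.799).

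Prima1 encodes the membrane anchor of acetylcholinesterase in neurons. Its range was narrow: 15.8 and 12.8 CPM in WT serum, 18.7 and 14.2 CPM at 1 day, 12.0, 12.7 and 12.5 CPM in serum and 22.1, 16.7 and 18.9 CPM at 4 days in experiment 2. Of these WT groups those at 4 days were apart from their serum controls, by 1.55-fold (log2 0.63 ± 0.16, SE; adjusted p = 0.0024). Cells labelled DKO had 8.53 and 6.30 CPM in serum and 6.41 and 5.07 CPM at 1 day, and the log2 differences from WT were −0.94 ± 0.21 (adjusted p = 0.00221) and −1.51 ± 0.21 (adjusted p = 4.09e-05). The 1-day change within DKO cells (−0.38 ± 0.21; adjusted p = 0.178) passed only without DKO serum replicate 2 (−0.56; 0.0392). With the mimics it ran from 3.26 to 8.57 CPM over all experiment 3 libraries, and the fall with miR-138 in serum (−0.54 ± 0.19; adjusted p = 0.0218) was lost by DESeq2 (0.0538) and without pUC19 serum replicate 2 (−0.21; 0.429), miR-138 serum replicate 1 (0.0644) or replicate 2 (0.0770). In pUC19 cells the 2-day difference was 0.42 ± 0.18 (adjusted p = 0.0578); it passed without the low-count filter (0.0326), without pUC19 serum replicate 2 (0.76; 0.00369) and without pUC19 2-day replicate 1 (0.54; 0.0428). The miR-138 effect on Prima1 was higher at 2 days than in serum by 0.87 ± 0.26 (adjusted p = 0.0153), lost without pUC19 serum replicate 2 (0.54; 0.14), miR-138 2-day replicate 2 (0.77; 0.0571) or pUC19 2-day replicate 1 (0.74; 0.0575). With miR-137 at 2 days, where Ache was higher, its anchor had 6.83 and 7.19 CPM against 5.85 and 6.94 CPM with pUC19 (adjusted p = 0.555).

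Colq encodes the collagen tail that fixes acetylcholinesterase in the muscle basal lamina. Reads appeared mainly in WT cells at 4 days, 30, 69 and 25 counts (1.28, 3.26 and 0.84 CPM) against 0 counts in the 3 serum libraries. This is at least 40.0-fold higher, taking 3 counts over the serum group as the floor. No test is given for it, since it entered the fit only through the group in which it was high. Elsewhere at most 3 counts were found in a library, and Colq entered no other comparison. Markers of skeletal muscle were at or near 0 in the 4-day libraries (0.101 to 0.513 CPM summed, with Myod1, Myog, Des and Ckm at 0).

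**Figure D2:**
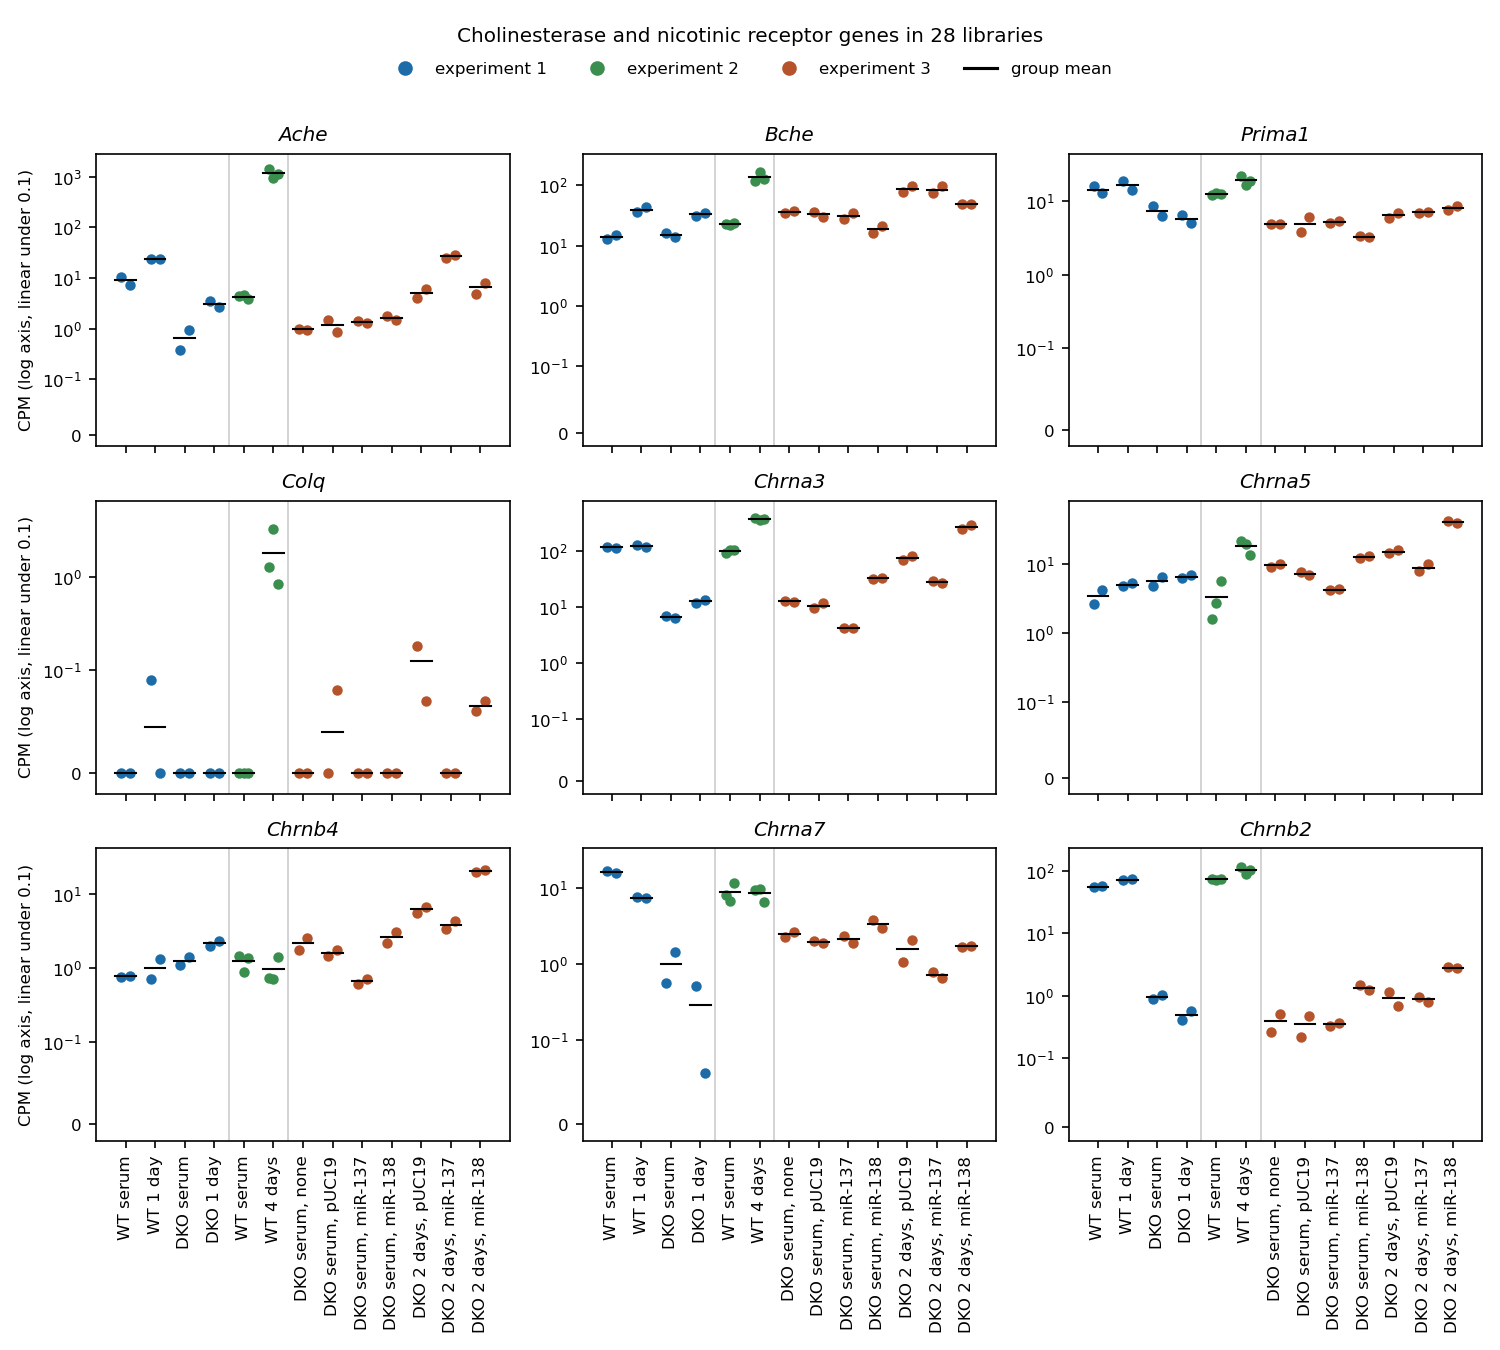
CPM of 9 genes in 28 libraries (points; bars, group means) by group, on axes that are logarithmic above 0.1 CPM and linear below, with experiments in separate colours and scaled separately. Ache lies at 936 to 1450.1 CPM in WT cells at 4 days and at or under 28.9 CPM in every other library, and Chrnb2 lies between 55.0 and 116 CPM in WT libraries and at or under 2.82 CPM in all those labelled DKO.

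Chrna3 encodes the ligand-binding subunit typical of ganglionic receptors. WT cells had 119 and 112 CPM in serum and 129 and 120 CPM at 1 day, against 6.81 and 6.37 CPM and 11.7 and 13.3 CPM in cells labelled DKO. The genotypes were well apart, 17.4-fold in serum (log2 −4.12 ± 0.10, SE; adjusted p = 4.34e-13) and 9.91-fold at 1 day (−3.31 ± 0.10; adjusted p = 2.36e-12). One day without serum was followed by a 1.90-fold rise in DKO cells (adjusted p = 1.44e-05), while in WT cells, whose groups did not overlap either, the log2 fold change was 0.11 ± 0.08 (adjusted p = 0.33), and the difference between these effects was 0.81 ± 0.14 (adjusted p = 0.00186). At 4 days WT cells had 392, 351 and 367 CPM against 92.6, 102 and 102 CPM in serum, a 3.74-fold rise (1.90 ± 0.08; adjusted p = 1.16e-10).

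Chrna3 differed from pUC19 with both mimics, in opposite directions. In serum it had 9.40 and 11.6 CPM with pUC19, 31.6 and 33.4 CPM with miR-138, 4.19 and 4.14 CPM with miR-137 and 12.9 and 12.2 CPM with no transfection named. At 2 days it had 67.6 and 81.8 CPM with pUC19, 247 and 289 CPM with miR-138, and 28.4 and 26.9 CPM with miR-137. No group overlapped another, at either time. Against pUC19, miR-138 gave log2 fold changes of 1.65 ± 0.12 in serum (adjusted p = 7.6e-10) and 1.84 ± 0.08 at 2 days (adjusted p = 1.16e-12), and miR-137 gave −1.31 ± 0.18 (adjusted p = 7.11e-06) and −1.43 ± 0.10 (adjusted p = 9.93e-10). Set directly against each other at 2 days the mimics differed 9.69-fold (3.28 ± 0.10; adjusted p = 1.19e-15).

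Chrna5 encodes an accessory subunit that joins receptors of the other 2 cluster genes. In serum it had 7.65 and 6.91 CPM with pUC19, 12.1 and 13.01 CPM with miR-138 and 4.26 and 4.28 CPM with miR-137. With no transfection named, in serum, it had 9.01 and 10.1 CPM, between pUC19 and miR-138. At 2 days it had 14.5 and 15.9 CPM with pUC19, 41.6 and 39.9 CPM with miR-138 and 7.92 and 9.88 CPM with miR-137. The 3 treatments were apart at both times, with log2 fold changes of 0.78 ± 0.12 (adjusted p = 1.87e-05) and 1.43 ± 0.10 (adjusted p = 4.26e-10) for miR-138 and −0.78 ± 0.16 (adjusted p = 0.000415) and −0.76 ± 0.12 (adjusted p = 4.97e-05) for miR-137. The miR-138 effect was larger at 2 days by 0.65 ± 0.16 (adjusted p = 0.00527), a call lost without pUC19 serum replicate 1 (0.55; 0.0565).

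In experiment 1 Chrna5 stayed under 7 CPM. WT cells had 2.63 and 4.18 CPM in serum and 4.74 and 5.30 CPM at 1 day, and DKO cells 4.80 and 6.55 CPM and 6.34 and 6.84 CPM. The higher level in DKO serum (log2 0.72 ± 0.26; adjusted p = 0.042) was lost by DESeq2 (0.0609), without WT serum replicate 1 (0.44; 0.291) and without DKO serum replicate 2 (0.49; 0.172), and in WT cells the 1-day difference (0.55 ± 0.27; adjusted p = 0.121) passed without WT serum replicate 2 (0.92; 0.0485). At 4 days WT cells had 21.4, 19.5 and 13.5 CPM against 1.60, 2.76 and 5.64 CPM in serum, a 5.42-fold rise (2.44 ± 0.35; adjusted p = 2.55e-05). The annotated spans of Chrna5 and Chrna3 overlap on opposite strands, and reads on the strand opposite to Chrna5 came to 0.84% of its reads on both strands.

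Chrnb4 encodes the beta subunit that pairs with that of Chrna3. It was near 1 CPM outside experiment 3: from 0.71 to 1.42 CPM in WT libraries and from 1.10 to 2.28 CPM in DKO libraries of experiment 1, and its 5 direct comparisons there had adjusted p of 0.1 to 0.6. In serum in experiment 3 it had 1.42 and 1.73 CPM with pUC19, 2.13 and 3.00 CPM with miR-138 and 0.60 and 0.71 CPM with miR-137. With no transfection named, in serum, it had 1.74 and 2.54 CPM, which overlapped the miR-138 range. At 2 days it had 5.55 and 6.67 CPM with pUC19, 19.7 and 20.5 CPM with miR-138 and 3.34 and 4.21 CPM with miR-137. The 2-day increase with miR-138 was 3.30-fold (log2 1.72 ± 0.16, SE; adjusted p = 1.82e-08), and the decrease with miR-137 was −0.68 ± 0.21 (adjusted p = 0.0112).

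Several calls of Chrnb4 rested on single libraries. That of miR-137 at 2 days was lost without miR-137 replicate 1 (−0.53; adjusted p = 0.118) or pUC19 replicate 2 (−0.55; 0.0832), and that in serum (−1.24 ± 0.38; 0.0122) without miR-137 replicate 1 (−1.11; 0.0870) or pUC19 replicate 2 (−1.10; 0.0606). The rise with miR-138 in serum (0.73 ± 0.26; 0.0213) was lost by DESeq2 (0.0590), without miR-138 replicate 2 (0.46; 0.218) and without pUC19 replicate 1 (0.57; 0.187). The miR-138 effect was larger at 2 days by 1.00 ± 0.32 (adjusted p = 0.0245), and this call was lost by DESeq2 (0.0549), without miR-138 serum replicate 1 (0.76; 0.102), pUC19 serum replicate 1 (1.14; 0.0557) or 2 (0.85; 0.122), or pUC19 2-day replicate 1 (0.86; 0.0682). Serum withdrawal with pUC19 raised Chrnb4 3.91-fold (adjusted p = 6.87e-07), beside 7.19-fold for Chrna3 (adjusted p = 6.45e-14) and 2.07-fold for Chrna5 (adjusted p = 5.53e-07). The 3 clustered genes thus rose together in these pUC19 cells at 2 days. In DKO cells of experiment 1 at 1 day Chrna3 rose, but by edgeR Chrna5 (log2 0.22 ± 0.25, adjusted p = 0.523) and Chrnb4 (0.77 ± 0.49, adjusted p = 0.23) did not pass. In WT cells at 4 days Chrnb4 had 0.73, 0.71 and 1.41 CPM against 1.42, 0.89 and 1.34 CPM in serum (adjusted p = 0.6). The WT and pUC19 comparisons differ in genotype label, transfection, time and experiment, which cannot be told apart.

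**Figure D3:**
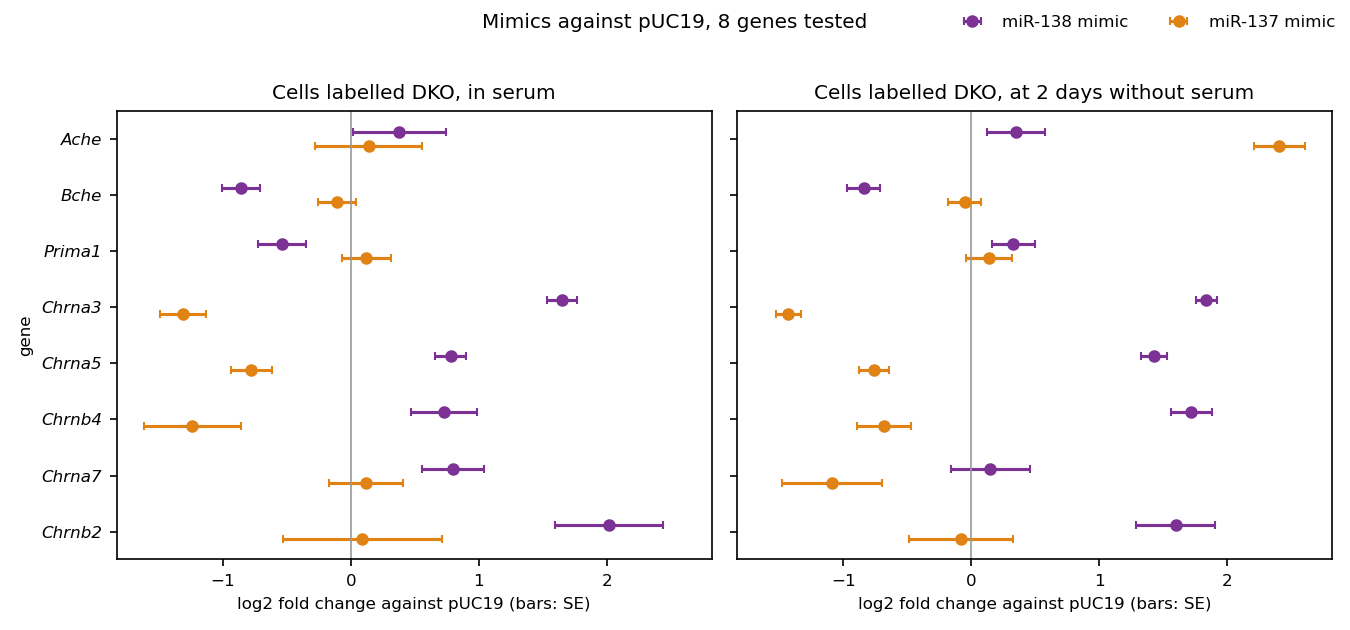
Log2 fold change against pUC19 (points; bars, SE) of 8 genes in cells labelled DKO, in serum (left) and at 2 days without serum (right), for the miR-138 and miR-137 mimics. Chrna3, Chrna5 and Chrnb4 lie right of 0 with miR-138 and left of 0 with miR-137 at both times, and Ache lies at 2.41 with miR-137 at 2 days only.

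Chrnb2 encodes the main beta subunit of brain nicotinic receptors. Its level set the 2 genotypes furthest apart among the 8 genes tested between them. WT cells had 55.0 and 57.1 CPM in serum and 70.5 and 73.5 CPM at 1 day, and cells labelled DKO 0.88 and 1.03 CPM and 0.41 and 0.57 CPM. The differences were 59.0-fold (log2 −5.88 ± 0.15, SE; adjusted p = 5.29e-13) and 145-fold (−7.18 ± 0.17; adjusted p = 1.9e-13). In WT cells it rose modestly, 1.28-fold at 1 day (adjusted p = 0.00974) and 1.41-fold at 4 days (adjusted p = 0.000499), where the 4-day libraries had 116, 88.6 and 105 CPM against 74.5, 70.6 and 74.6 CPM.

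In cells labelled DKO the 1-day change of Chrnb2 went down, −0.94 ± 0.27 (adjusted p = 0.0131), lost without DKO serum replicate 2 (−0.82; 0.0596) or 1-day replicate 1 (−0.74; 0.117). The effects in the 2 genotypes differed by −1.30 ± 0.29 (adjusted p = 0.011), lost without DKO 1-day replicate 1 (−1.09; 0.0825). In serum it had 1.46 and 1.22 CPM with miR-138 against 0.22 and 0.47 CPM with pUC19, the latter from 4 and 6 reads. That was a log2 fold change of 2.02 ± 0.42 (adjusted p = 0.000421 by edgeR), which ran from 1.49 to 2.58 with 1 library left out. At 2 days Chrnb2 had 2.82 and 2.74 CPM with miR-138 against 1.12 and 0.68 CPM with pUC19 (1.60 ± 0.31; adjusted p = 0.000189). Those levels remained far under the separately scaled WT levels. With miR-137 it had 0.33 and 0.36 CPM in serum (adjusted p = 0.926) and 0.93 and 0.80 CPM at 2 days (adjusted p = 0.892), within the pUC19 range. The rise of pUC19 cells at 2 days (1.48 ± 0.49; adjusted p = 0.0135) was lost by DESeq2 (0.0624), without pUC19 serum replicate 1 (0.96; 0.193) and without pUC19 2-day replicate 1 (1.05; 0.175).

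Chrna7 encodes the subunit of the homomeric, calcium-permeable receptor. WT cells had 16.7 and 15.5 CPM in serum and 7.44 and 7.30 CPM at 1 day, and cells labelled DKO 0.56 and 1.42 CPM and 0.51 and 0.06 CPM. The log2 difference between genotypes in serum was −4.08 ± 0.40 (SE; adjusted p = 1.42e-06), and after 1 day it was −4.70 ± 0.49 (adjusted p = 2.25e-06). The serum value was −4.82 without DKO serum replicate 2, and the 1-day value −6.78 without DKO 1-day replicate 1 and −3.80 without replicate 2. It was the 1 gene of the set to go down at 1 day in WT cells (−1.12 ± 0.33; adjusted p = 0.0135, lost as given above), and it overlapped serum at 4 days (9.24, 9.54 and 6.43 CPM against 8.14, 6.78 and 11.7 CPM). The 1-day fall in DKO cells (−1.74 ± 0.59; adjusted p = 0.03) was −2.34 (0.000426) without DKO serum replicate 1 and −3.83 (0.00514) without 1-day replicate 1, and it was lost by DESeq2 (0.0985) and without DKO serum replicate 2 (−0.99; 0.181) or 1-day replicate 2 (−0.87; 0.271).

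In experiment 3 Chrna7 ran from 0.65 to 3.78 CPM. With miR-138 in serum it had 3.78 and 2.96 CPM against 1.97 and 1.89 CPM with pUC19 (log2 0.80 ± 0.24; adjusted p = 0.00918), lost by DESeq2 (0.0827), without miR-138 replicate 1 (0.62; 0.0857) and without pUC19 replicate 1 (0.84; 0.0553). At 2 days it had 1.66 and 1.73 CPM with miR-138, 0.78 and 0.65 CPM with miR-137 and 1.06 and 2.04 CPM with pUC19. The lower value with miR-137 (−1.09 ± 0.39; adjusted p = 0.0293) was lost by DESeq2 (0.0751), without miR-137 replicate 1 (−1.21; 0.0775) or 2 (−0.96; 0.155), and without pUC19 replicate 2 (−0.57; 0.356). The direct difference between the mimics (1.24 ± 0.38; adjusted p = 0.00875) was lost without miR-137 replicate 2 (1.11; 0.0666).

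Genes beside the receptor cluster were read for comparison, a choice made after values were seen: the nearest 3 protein-coding genes on each side, Hykk, AY074887 and Psma4 before Chrna5 and Ube2q2, Fbxo22 and Nrg4 after Chrnb4, of which 5 were tested. At 2 days Hykk, which encodes hydroxylysine kinase, was higher with the miR-138 mimic than with pUC19 (log2 1.11 ± 0.13; adjusted p = 4.52e-07). So were Ube2q2 (0.70 ± 0.10; adjusted p = 3.07e-06) and the proteasome subunit gene Psma4 (0.35 ± 0.07; adjusted p = 0.000236). Fbxo22 was lower (−0.27 ± 0.08; adjusted p = 0.00728), and Nrg4 did not pass (−0.48 ± 0.21; adjusted p = 0.061). With miR-137 at 2 days 0 of the 5 passed by edgeR, and at an unadjusted p under 0.05 only Hykk did (−0.35 ± 0.15; adjusted p = 0.0727), while the 3 receptor genes were lower. In serum 3 of the 5 were higher and 1 lower with miR-138, against 28.7% and 27.3% of all genes. With miR-137 in serum 1 was higher and 1 lower, against 23.1% and 22.5%. Hykk had 9.09 ± 0.957 CPM in serum with miR-138, 2.51 ± 0.215 CPM with miR-137 and 3.66 ± 0.155 CPM with pUC19 (SD, n = 2). On withdrawal with pUC19 Hykk and Nrg4 rose and Psma4 and Fbxo22 fell.

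**Figure D4:**
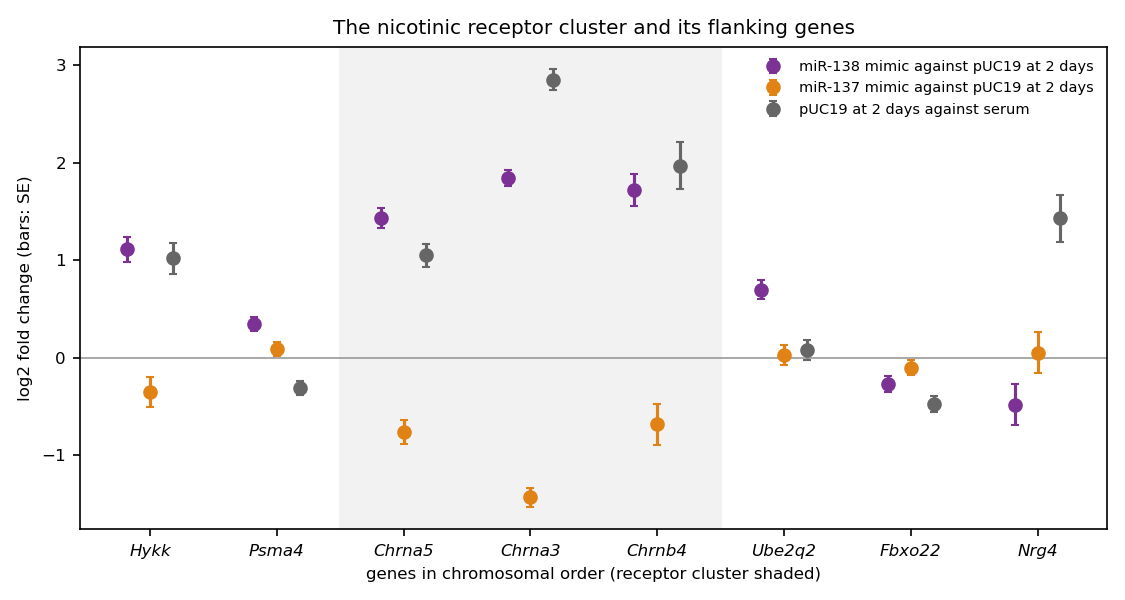
Log2 fold change (points; bars, SE) of the clustered receptor genes (shaded) and 5 flanking genes in chromosomal order, for both mimics against pUC19 at 2 days and for pUC19 at 2 days against serum. The receptor genes lie at 1.43 to 1.84 with miR-138 and at −1.43 to −0.68 with miR-137. Of the flanking genes, Hykk, Ube2q2 and Psma4 are positive and Fbxo22 and Nrg4 negative with miR-138, while those with miR-137 lie between −0.35 and 0.09.

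Of 11 other nicotinic subunit genes, Chrnb1, the beta subunit of the muscle receptor, was tested in all 3 experiments, Chrna1 in experiment 1, and the others in none. Chrnb1 rose 9.80-fold in WT cells at 4 days, from 0.957 ± 0.709 to 9.61 ± 1.40 CPM (SD, n = 3; adjusted p = 8.59e-06), and was lower with the miR-138 mimic at 2 days (−1.81 ± 0.22, SE; adjusted p = 8.56e-07). Its direction with miR-138 was thus opposite to that of Chrnb4 and Chrnb2. The pUC19 control itself differed in serum, with more Chrnb1 than cells with no transfection named (0.98 ± 0.25; adjusted p = 0.00741 by edgeR). In serum the miR-138 fold change against pUC19 was −0.92 ± 0.24 (adjusted p = 0.00286), and no 2-day group without transfection was available. Among 5 muscarinic receptor genes only Chrm4, which encodes a receptor coupled to inhibitory G proteins, was tested. Chrm4 was lower in DKO than in WT serum (−1.55 ± 0.18; adjusted p = 7.16e-06), higher in WT cells at 4 days (1.23 ± 0.10; adjusted p = 8.47e-08), higher with miR-138 at 2 days (0.54 ± 0.09; adjusted p = 2.94e-05) and lower with miR-137 (−0.57 ± 0.10; adjusted p = 0.000115). In serum, by edgeR, Chrm4 was at −0.21 ± 0.09 with miR-138 (adjusted p = 0.0671) and at −0.42 ± 0.10 with miR-137 (adjusted p = 0.00235). Its miR-138 effect was higher at 2 days than in serum by 0.75 ± 0.13 (adjusted p = 0.000265).

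Acetylcholine synthesis genes were scarcely read. Chat, which encodes choline acetyltransferase, had at most 18 counts in any group, and Slc5a7, the high-affinity choline transporter, at most 6, and neither was tested. The 5 tested genes of the 7 on that list serve choline transport, choline phosphorylation or acetyl-CoA supply in cells generally. In DKO against WT serum 2 were higher and 1 lower, where 19.2% of all genes were higher and 21.5% lower. Slc44a1, a choline transporter, was at 0.92 ± 0.06 (adjusted p = 2.76e-08), the citrate lyase gene Acly at −0.22 ± 0.06 (adjusted p = 0.0107) and the choline kinase gene Chkb at 0.31 ± 0.11 (adjusted p = 0.0393). In WT cells at 4 days 4 of the 5 were higher, against 36.2% of all genes. At 2 days the miR-138 mimic left 2 of 5 lower, near the 31.1% of all genes, among them Slc44a1 (−0.67 ± 0.05; adjusted p = 1.3e-09).

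Receptor assembly and placement were read from 2 more lists. Of 10 chaperone and Ly6-type regulator genes 4 were tested in experiment 1, and in DKO against WT serum 2 were lower and 1 higher (all genes, 21.5% and 19.2%). Ric3, a chaperone of nicotinic receptors, was at −3.23 ± 0.13 (adjusted p = 7.33e-11), Ly6e at −3.38 ± 0.31 (adjusted p = 6.93e-07) and Unc50, which acts in receptor trafficking, at 0.43 ± 0.09 (adjusted p = 0.00191). Ric3 and Chrna7 were both lower in the cells labelled DKO. Of 8 postsynaptic and basal lamina genes 6 were tested, and 4 were higher and 1 lower in that comparison (all genes, 19.2% and 21.5%), with nidogen (Nid1) at 2.29 ± 0.10 (adjusted p = 1.6e-10) and agrin (Agrn), which organises receptor clusters at the muscle synapse, at −0.80 ± 0.10 (adjusted p = 1.41e-05). At 4 days in WT cells 5 of the 6 rose, against 36.2% of all genes, among them Lrp4, the agrin receptor, at 2.57 ± 0.29 (adjusted p = 2.24e-06).

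The repressor REST and its corepressors hold down many neuronal genes in other cells, Chrnb2 among them. Rest was higher in DKO than in WT serum (log2 0.91 ± 0.09, SE; adjusted p = 1.22e-06) and Rcor2 lower (−0.77 ± 0.07; adjusted p = 7.06e-07), of 4 genes tested (all genes, 19.2% higher and 21.5% lower). With the miR-138 mimic at 2 days the 4 were lower, against 31.1% of all genes, from Rcor2 (−1.78 ± 0.07; adjusted p = 1.67e-13) to Rest (−0.21 ± 0.05; adjusted p = 0.00214). With miR-137 at 2 days Rcor1 was higher (0.23 ± 0.06; adjusted p = 0.00304) and Rcor2 lower (−0.72 ± 0.06; adjusted p = 3.21e-08), where 20.5% of all genes were higher and 22.2% lower. These changes stand beside those of the receptor genes, and any link was not tested.

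The genes most like the 3 members of highest mean level were found over 13 group means, centred within each experiment, among 10669 genes, as a description. Ache was most like Ppm1j (Pearson's r = 0.981), Fam198a (0.972) and Col5a3 (0.972). Chrna3 was most like Pfkm (0.963), Ogdhl (0.958) and Syt6 (0.954), and Bche was most like Zfp866 (0.978), Slc27a1 (0.975) and Nek8 (0.973). Within the gene set Ache was nearest to Bche (0.808), and Chrna3 to Chrnb2 (0.754). The groups of an experiment share its library type, and serum withdrawal moved many genes.

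The orders below mix groups of experiments that were scaled separately. WT serum groups of experiments 1 and 2 differed for Ache (means 8.97 and 4.29 CPM) and less for Chrna3 (115 and 98.9 CPM). Ordered by group mean, Ache ran from 1170.0 ± 260 CPM (SD, n = 3) in WT cells at 4 days, through 26.7 ± 3.05 CPM (n = 2) with miR-137 at 2 days and 23.6 ± 0.0387 CPM (n = 2) in WT cells at 1 day, to 0.647 ± 0.395 CPM (n = 2) in cells labelled DKO in serum. Neighbouring groups overlapped from WT serum in experiment 1 through miR-138 and pUC19 at 2 days to WT serum in experiment 2, and again at the low end, from miR-137 in serum through pUC19 and cells with no transfection named to experiment 1 DKO cells in serum. Chrna3 ran from 370.0 ± 20.7 CPM (n = 3) in WT cells at 4 days and 268 ± 29.9 CPM (n = 2) with miR-138 at 2 days down to 4.17 ± 0.0345 CPM (n = 2) with miR-137 in serum. Of its neighbouring groups only DKO cells with no transfection named, in serum, and DKO cells at 1 day overlapped. Bche ran from 137 ± 27.7 CPM (n = 3) in WT cells at 4 days to 14.1 ± 1.43 CPM (n = 2) in WT serum of experiment 1, and its neighbouring groups overlapped between pUC19 and miR-137 at 2 days, from WT cells at 1 day through cells with no transfection named, pUC19 cells in serum and 1-day DKO cells to miR-137 in serum, and between DKO and WT serum of experiment 1.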

How the data were processed

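The 28 RNA-seq libraries were analysed from the raw read counts per gene that the authors deposited, one table per library in the layout of STAR gene counts, with the column of the strand that took nearly all reads used here. The submitters' processing notes name STAR, cutadapt, BWA, DESeq, DESeq2 and the build mm9, with no versions. Per the labels' protocols, libraries were polyA-selected and strand-specific, paired-end in experiments 1 and 2 and single-end in experiment 3. Assigned reads were 22359075 to 41505181 in experiment 1, 19900317 to 28631969 in experiment 2 and 12740836 to 25582125 in experiment 3. Rows that name no gene stayed out of library sizes: unmapped reads were 4.53 to 9.67%, multimapping reads 6.77 to 18.51%, reads on no feature 5.34 to 16.32% and ambiguous reads 0.44 to 0.74%.

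The 3 experiments had separate fits in edgeR 4.0.16 (R 4.3.3) after its low-count filter (minimum count 10, minimum total 15), with TMM scaling, the quasi-likelihood test and Benjamini-Hochberg adjustment over all genes tested; a call is an adjusted p under 0.05. SE was taken from the fold change and the F statistic. Alternatives were DESeq2 1.42.0, its size factors within edgeR, no filter, unstranded counts, a replicate block and leaving out each library; the miR-138 against miR-137 comparison and the 2 mimic interactions, with their alternatives, were chosen after seeing the data. The fits were also run on simulated counts with 200 genes changed in 1 group, fewer than were called in any comparison here. That run therefore does not check the scaling or the rate of false calls in these data. All 10 genes of the set are named, up to 4 genes of each pathway list by lowest adjusted p in the comparison described first, and the 3 genes most like each of the 3 members of highest mean level. Members and lists were chosen with earlier results of these data known. Small RNA libraries were not used here. The design text gives triplicate mimic libraries and the protocol duplicates; 2 per group were analysed. Symbols matched 32620 of 37310 gene identifiers.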

Additional observations from a re-analysis of the deposited data

Results flagged for a closer look

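The effect of serum withdrawal, or of a mimic, differed between the 2 settings it was measured in for 6 results, each by a test of the difference itself (edgeR, adjusted over all genes). Chrna3 rose more at 1 day in cells labelled DKO than in WT cells, by 0.81 on the log2 scale (adjusted p = 0.00186). Chrnb2 went the other way, with a difference of −1.30 (adjusted p = 0.011), falling in DKO cells and rising in WT cells. The miR-138 effect was higher at 2 days without serum than in serum for Chrnb4 by 1.00 (adjusted p = 0.0245), for Prima1 by 0.87 (adjusted p = 0.0153) and for Chrna5 by 0.65 (adjusted p = 0.00527). The miR-137 effect on Ache was higher at 2 days by 2.27 (adjusted p = 0.00174). Of these, only the Chrna3 difference was called under every alternative and without each library in turn; the others were lost in at least 1 alternative, as given beside each gene.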

How the results depend on the processing

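Of 969 recomputed fold changes of these genes, 881 kept their direction and side of the threshold, 55 lost the call, 8 gained it and 25 changed sign; every change of sign was in a fold change that had not been called. The number of genes of the set past the threshold changed by more than 1.5 times for pUC19 against no transfection named (0 without the filter, 0 by DESeq2, from 1) and for miR-138 in serum (4 by DESeq2, from 7). It changed by 1 elsewhere: DESeq2 called 1 fewer for WT and DKO at 1 day, genotype in serum, pUC19 at 2 days, miR-137 at 2 days and the miR-138 interaction (2, from 3), and no filter and the replicate block each added 1 for pUC19 at 2 days. Where leaving out 1 library moved the count by more than 1.5 times, it ranged over 2 to 3 for WT at 1 day, 1 to 3 for the genotype interaction, 0 to 1 for pUC19 against no transfection named, 3 to 5 for miR-137 at 2 days, 1 to 3 for the miR-138 interaction and 0 to 2 for the miR-137 interaction. Over all genes, it gave 615 to 2602 for the genotype interaction (1325 with all libraries) and 1730 to 2764 for pUC19 against no transfection named (3321 with all). Where 1 library was left in a group, its spread was taken from the rest of the fit.

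Sign changed with unstranded counts for Chrnb2 with miR-137 in serum (−0.05). Without 1 library the log2 fold changes ran from −0.02 to 0.39 for Prima1 and −0.11 to 0.74 for Chrnb4 in WT at 1 day, −0.02 to 0.20 for Bche between genotypes in serum, and −0.27 to 0.14 for Chrna7 in WT at 4 days. For pUC19 against no transfection named they ran from −0.14 to 0.62 for Ache, −0.24 to 0.04 for Bche, −0.34 to 0.31 for Prima1 and −0.81 to 0.29 for Chrnb2, and for pUC19 at 2 days from −0.86 to 0.08 for Chrna7. For miR-138 at 2 days they ran from −0.04 to 0.69 for Ache and −0.27 to 0.66 for Chrna7. For miR-137 they ran in serum from −0.13 to 0.63 for Ache, −0.26 to 0.05 for Bche, −0.21 to 0.44 for Prima1, −0.06 to 0.27 for Chrna7 and −0.45 to 0.64 for Chrnb2, and at 2 days from −0.26 to 0.14 for Bche and −0.37 to 0.34 for Chrnb2. The cause of these changes was not tested.

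Same-numbered libraries did not deviate together: correlations of their deviations were 0.043 to 0.084 over 12 pairs in experiment 1, −0.042 to 0.033 over 3 in experiment 2 and −0.25 to 0.173 over 42 in experiment 3, so numbers were not read as pairs. A replicate block changed 1 call of these genes, Prima1 in pUC19 cells at 2 days (0.42; adjusted p = 0.043). DESeq2 moved the median of all genes in WT at 4 days from 0.04 to 0.15. Low counts limit Colq, Chrnb4 and, in cells labelled DKO, Chrnb2, Chrna7 and Ache.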
